A study of Oryctolagus cuniculus with 49 samples.

Results

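The genes described are the interferon receptors, the signal transducers and transcription factors downstream of them, and genes named for their induction by interferon, measured in rabbit iris with ciliary body with and without lens surgery. They were taken from the deposited table by symbol (names beginning with IFI, IFNAR, IFNGR, ISG, OAS, MX, IRF, STAT, GBP, HERC5, HERC6, DDX58, DDX60, RSAD2, USP18 or PARP, with a number where the family uses one). The rule matched 46 of 12948 symbols, or 65 of 16725 transcripts, and 13 of the 46 had more than 1 transcript. The New Zealand white rabbits (Oryctolagus cuniculus) were sampled at 5 weeks without surgery (7 libraries), at 5 weeks after surgery (3), at 6.5 weeks after surgery (3), at 6 months without surgery (7) and at 6 months after surgery (6), where surgery means that the lens was taken out and an artificial one put in. The series asks how young and adult eyes respond to this operation. The labels name no unoperated 6.5-week library, and no source used here gives the time from operation to sampling. Of 49 labelled samples, 23 are cornea and were not used.

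Interferons are cytokines released on viral infection, tissue damage and immune activation. Type I interferons bind the receptor pair IFNAR1 and IFNAR2, and interferon gamma binds IFNGR1 and IFNGR2. Receptor-bound JAK kinases then phosphorylate STAT proteins, which enter the nucleus. Under type I interferon, complexes that hold STAT2 and IRF9 switch on antiviral genes such as MX1, the OAS and IFIT families and ISG15, while interferon gamma also switches on IRF1, guanylate-binding proteins and antigen-presentation genes. The anterior eye is an immune-privileged site, and its iris and ciliary body carry resident macrophages and the vessels that form the blood-aqueous barrier.

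The values are FPKM (fragments mapped to a transcript, scaled to its length and to the library's total), a level relative to all other transcripts of a library. Their sum over the listed transcripts was 412936 to 504202, and no read depth is known. In bulk tissue, fewer cells of a type and less RNA per cell cannot be told apart. Markers of the labelled tissue were present: the ciliary epithelium genes BEST2 and AQP1 averaged 23.4 and 226 FPKM in unoperated 5-week eyes, and the pigment cell gene TYR averaged 201 FPKM. The summed level of 5 ciliary epithelium markers was 795 to 966 FPKM in unoperated and 409 to 693 FPKM in operated libraries. Lens RNA varied widely, with CRYAA above 1000 FPKM in 8 of 26 libraries. Markers of other cells moved with surgery. The sum of 6 pigment cell markers was 1980 to 3440 FPKM in unoperated and 1200 to 1970 FPKM in operated libraries, and that of 6 listed endothelial markers 114 to 157 and 153 to 312 FPKM. The endothelial markers did not move alike. VWF, CDH5 and PECAM1 were higher in every operated than in every unoperated library, while TEK and KDR overlapped. CLDN5 went the other way at 6 months, from 47.04 to 65.16 FPKM without to 26.4 to 50.17 FPKM with surgery. The summed level of 14 listed monocyte and macrophage markers was 78.6 to 279 FPKM in the unoperated groups and 335 to 926 FPKM in the operated groups. The sum of 4 pan-leukocyte markers was 29.3 to 123 FPKM in unoperated and 112 to 330 FPKM in operated libraries, and that of 3 neutrophil markers 0.55 to 7.47 and 15.7 to 82.1 FPKM. Of 16 T and NK cell markers 4 are listed, and their sum reached 111 FPKM in 5-week operated replicate 3, against at most 37.9 FPKM elsewhere. No listed marker was at 0 in every library. The part of these cells in the results that follow was not tested.

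2 libraries stood apart before any comparison. 5-week unoperated replicate 6 had the highest level of all 26 libraries for each of 13 antiviral genes (IFIT2, IFIT3, IFIT5, MX1, OAS1, OAS2, OAS3, OASL, ISG15, USP18, HERC5, IFI44 and IFI44L). ISG15, the ubiquitin-like protein that is among the genes most strongly induced by type I interferon, stood at 339.7 FPKM there and at 8.97, 9.76, 11.45, 19.86, 29.82 and 56.25 FPKM in the other 6 libraries of that group. MX1, a GTPase that restricts early steps of viral replication, stood at 685.07 FPKM against 58.96 to 206.8 FPKM. For PARP3, which separated operated from unoperated eyes, the same library was the highest of its group (9.99 FPKM, against at most 7.24 in the others) and below every operated library (33.44 FPKM or more). Its macrophage marker sum was 196 FPKM, the highest of its group and below the operated range. 5-week operated replicate 3 had the highest level of its group of 3 for 36 of the 46 genes, with IRF8 at 17.98 FPKM against 5.74 and 4.94, and IRF1 at 77.75 FPKM against 11.88 and 17.35. Results that rest on these libraries are given with and without them. Both were picked for their high levels of these genes. Leaving either out therefore moves the juvenile and age changes of the genes highest there in a direction fixed by that choice.

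With surgery at 6 months, 14 of the 46 genes rose and 3 fell by limma (adjusted p under 0.05 over all 12948 genes). The backgrounds are 16% of all genes higher and 30.1% lower. The median log2 fold change was 0.39 over the 46 genes and -0.11 over all genes, and 19 of the 46 were at an unadjusted p under 0.05. In juveniles, where both young operated groups, equally weighted, were set against unoperated 5-week eyes, 15 rose and 0 fell. There the backgrounds are 16.5% higher and 20.8% lower, the medians were 0.40 and -0.06, and 21 of the 46 were at an unadjusted p under 0.05. All these backgrounds are at the adjusted threshold. The share of all genes at an unadjusted p under 0.05 was not counted, so the 19 and 21 cannot be called particular to these genes. The split depends on scaling: over all genes at 6 months it was 2077 higher and 3892 lower as deposited, 2784 and 2614 with median-ratio scaling and 1441 and 6123 with every library scaled to the same sum. For the 46 genes the last gave 10 higher and 6 lower at 6 months and 9 and 5 in juveniles (1545 and 4670 over all genes). Of the 46 genes, 43 were listed in the table through an unoperated group. IRF5, PARP2 and STAT4 were listed only through operated groups, so that they had to be high there. For PARP2 and STAT4 this was the operated 6-month group alone, so their listing did not require a rise in juveniles. Of the other 43 genes 12 rose at 6 months and 14 in juveniles. The comparisons at 6 months and in juveniles share no library, but they use the same estimate of each gene's spread. In both, DDX58, IFI35, IFNAR1, IFNAR2, IFNGR1, IFNGR2, IRF2, IRF8, ISG20L2, PARP3, STAT3 and STAT6 rose, 12 of the 43. The share of all genes that rose in both was not counted, so the overlap cannot be called particular to these genes. IRF1 and IRF3 were called in juveniles alone. Most of the genes named for interferon were not among them: all 3 IFIT genes, MX1 and the OAS genes (5 in all), ISG15, USP18 and HERC5, the sensor IFIH1, IFI44, IFI44L, STAT2, IRF7 and IRF9 were called in neither comparison.

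**Figure D1:**
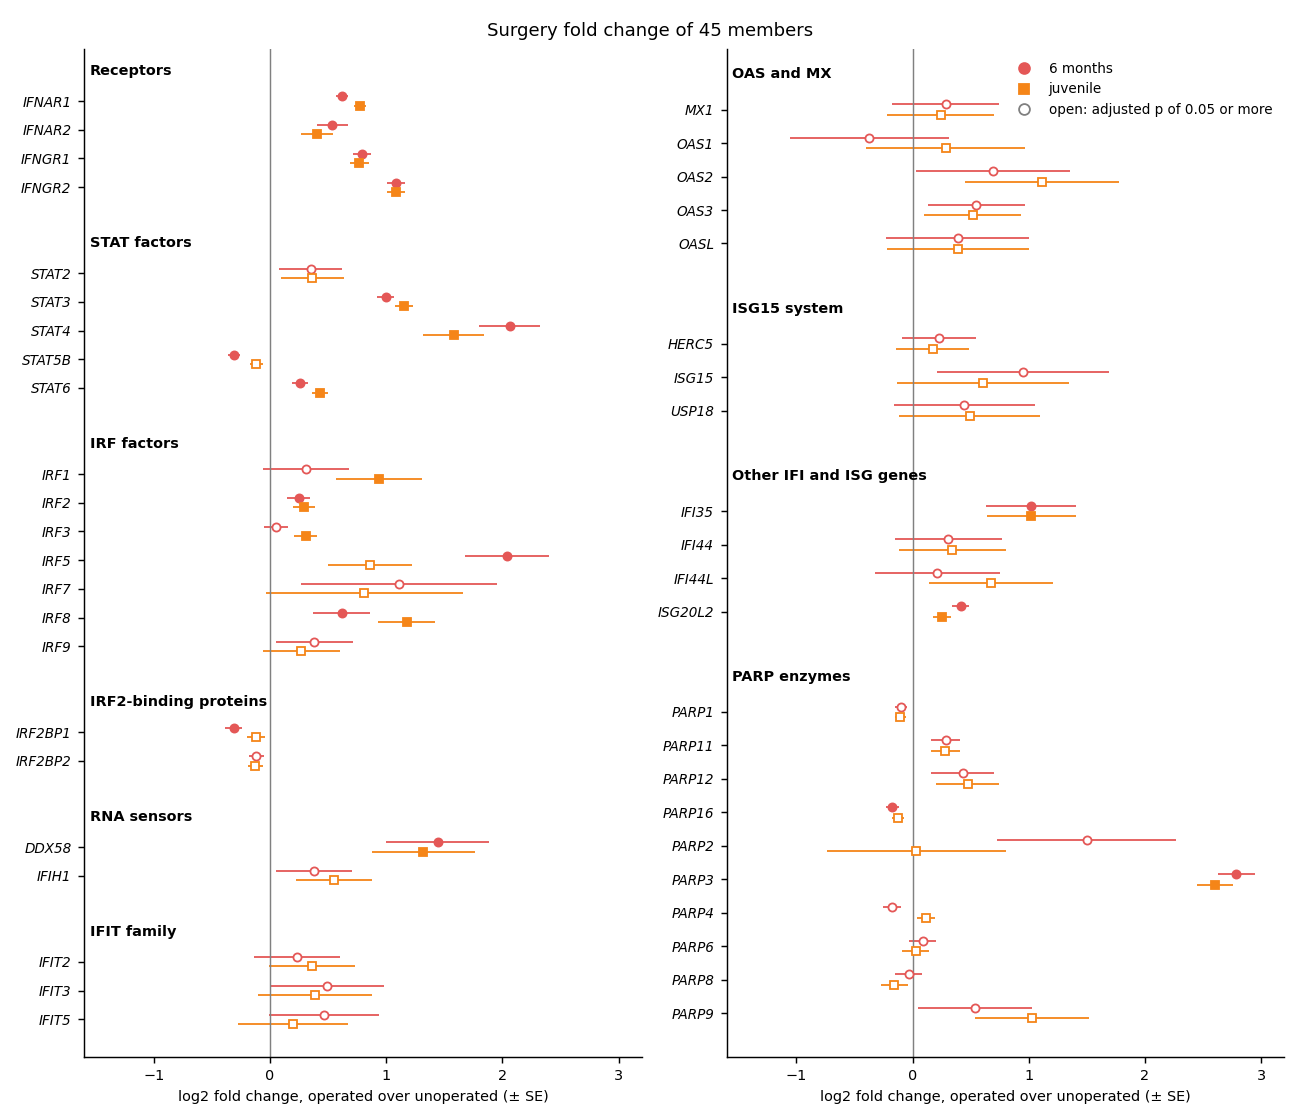
Log2 fold change of operated over unoperated eyes for 45 of the 46 genes, by role, at 6 months (circles) and in juveniles (squares), with bars of 1 SE. Filled symbols passed an adjusted p of 0.05, among them STAT4 and IRF5, which were listed only through operated groups; the 4 receptors, STAT3 and PARP3 have short bars well to the right of 0, and the IFIT, OAS, MX1 and ISG15 bars are wide.

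The 4 receptor subunits all rose with surgery at both ages (all genes 16% at 6 months and 16.5% in juveniles). IFNAR1, a chain of the type I receptor, stood at 40.76 to 46.49 FPKM (median 44.46) in unoperated 5-week eyes. It was 71.94, 74.18 and 77.82 FPKM in operated 5-week eyes and 81.36, 79.09 and 68.48 FPKM in operated 6.5-week eyes. At 6 months the unoperated range was 45.31 to 50.08 FPKM (median 46.54) and the operated range 67.53 to 79.39 FPKM (median 72.34). No operated library overlapped an unoperated one. The log2 fold change was 0.62 ± 0.05 (SE) at 6 months and 0.77 ± 0.05 in juveniles (limma adjusted p = 5.49e-10 and 1.44e-11).

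IFNGR2, the signalling chain of the interferon gamma receptor, rose the most of the 4. It averaged 21.9 ± 1.25 FPKM (SD, n = 7) in unoperated 5-week eyes, where its range was 20.05 to 24.03 FPKM, and was 47.09, 47.76 and 50.82 FPKM after surgery at 5 weeks and 45.99, 41.97 and 48.48 FPKM at 6.5 weeks. At 6 months it went from 25.8 ± 1.45 (n = 7) to 55.7 ± 10.0 FPKM (n = 6). The groups did not overlap, and the fold was 2.12 in each comparison (log2 1.08 ± 0.08 in both, limma adjusted p = 8.55e-11 and 9.92e-11). IFNGR1, the ligand-binding chain, averaged 31.2 ± 2.53 and 54.6 ± 8.57 FPKM at 6 months (1.73-fold) and 27.5 ± 2.2 and 47.2 ± 2.74 FPKM in juveniles (1.71-fold, n = 7 and 6).

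IFNAR2, the other type I chain, rose with overlap between the groups. At 6 months it ranged from 11.22 to 22.38 FPKM (median 15.18) without and from 19.59 to 25.21 FPKM (median 21.86) with surgery, a 1.45-fold change (log2 0.54 ± 0.14, limma adjusted p = 0.00258). In juveniles it rose 1.32-fold (limma adjusted p = 0.0231), and this call was lost in 8 of 29 alternatives (adjusted p up to 0.119). The other receptor calls kept their direction and side of the threshold in every alternative run. The surgery effects on the receptors were not shown to differ with age: the difference (6 months minus juvenile) was -0.15 ± 0.07 for IFNAR1, 0.135 ± 0.194 for IFNAR2, 0.02 ± 0.11 for IFNGR1 and -0.0034 ± 0.1103 for IFNGR2 on the log2 scale, with limma adjusted p from 0.359 to 0.994.

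**Figure D2:**
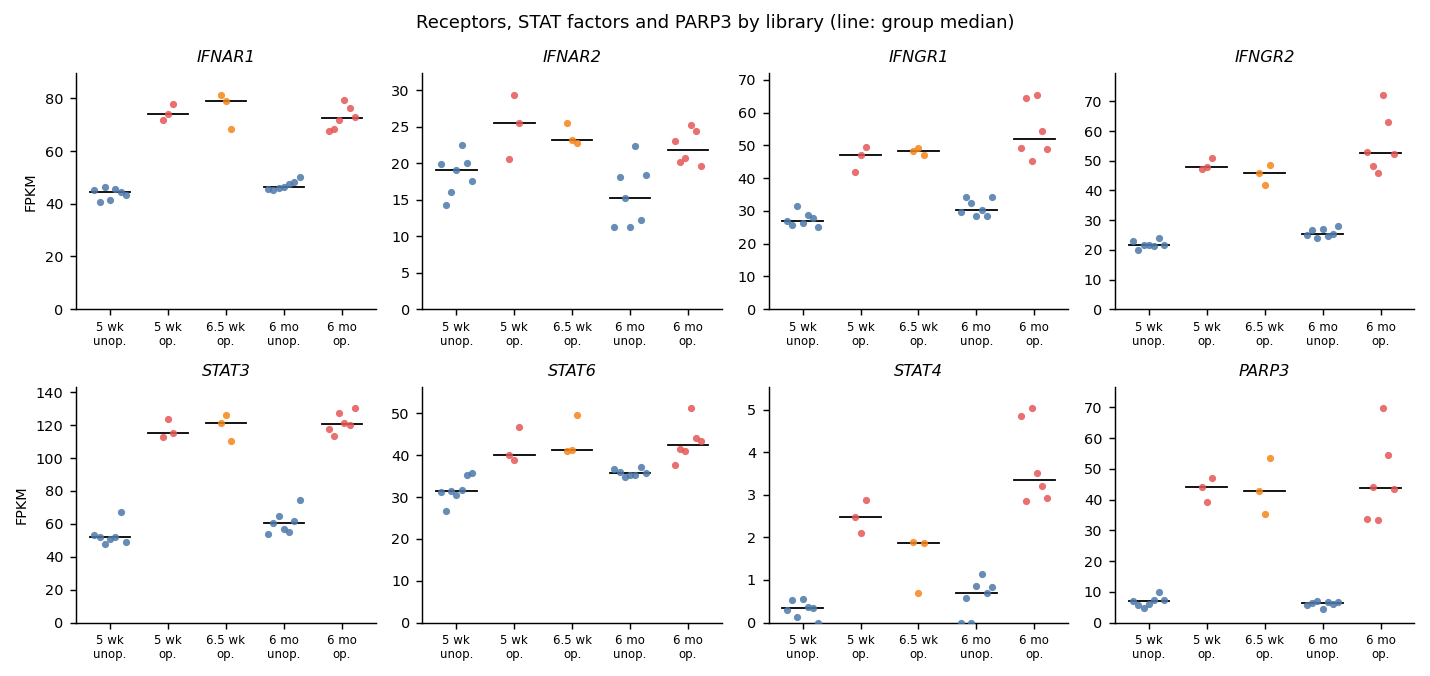
FPKM of the 4 receptor genes, STAT3, STAT6, STAT4 and PARP3 in each of the 26 libraries, by group, on linear axes from 0 with a line at the group median. PARP3 is at 4.33 to 9.99 FPKM in the 14 unoperated and at 33.44 to 69.82 FPKM in the 12 operated libraries, and IFNAR2 is the only one of the 4 receptors whose groups overlap.

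Among the STAT factors, 2 of the 5 listed through an unoperated group rose at each age (all genes 16% at 6 months and 16.5% in juveniles). STAT3, which signals for interleukin-6-type cytokines as well as interferons, stood at 47.76 to 67.26 FPKM (median 51.72) in unoperated 5-week eyes and at 112.63, 123.92 and 115.14 FPKM after surgery. It was at 121.24, 126.34 and 110.48 FPKM in operated 6.5-week eyes. At 6 months it went from 54.05 to 74.74 FPKM (median 60.24) to 113.39 to 130.48 FPKM (median 120.78). No group of operated eyes overlapped unoperated eyes, with folds of 1.99 at 6 months and 2.22 in juveniles (log2 0.99 ± 0.07 and 1.15 ± 0.07; limma adjusted p = 1.75e-10 and 1.49e-11). STAT6, the transducer of interleukins 4 and 13, rose 1.2-fold at 6 months, from 35.9 ± 0.827 to 43.2 ± 4.55 FPKM, and 1.35-fold in juveniles, from 31.8 ± 3.05 to 43 ± 4.25 FPKM.

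STAT4, which acts in T and NK cells downstream of interleukin 12 and type I interferon, was low throughout. It was listed at 0 to 0.56 FPKM in unoperated 5-week eyes and at 0 to 1.14 FPKM in unoperated 6-month eyes. After surgery it was 2.49, 2.10 and 2.88 FPKM at 5 weeks, 1.90, 0.70 and 1.87 FPKM at 6.5 weeks, and 2.86 to 5.04 FPKM (median 3.36) at 6 months. The table lists it through operated 6-month eyes alone, so that it had to be high there, and these levels are given as a description with no test. STAT5B, a transducer for growth hormone and cytokines, fell by 0.31 ± 0.06 on the log2 scale at 6 months, from 17.09 to 20.11 FPKM to 13.68 to 16.70 FPKM without overlap (limma adjusted p = 7.24e-05).

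STAT2, a transducer of the type I response, passed in neither comparison. It stood at 16.34 to 40.7 FPKM (median 19.38) in unoperated and at 21.52 to 40.81 FPKM in operated 6-month eyes. In unoperated 5-week eyes it was 64.59 FPKM in replicate 6 and 17.58 to 21.13 FPKM in the other 6, against 26.66, 24.58 and 56.69 FPKM in operated 5-week and 22.73, 32.24 and 27.51 FPKM in operated 6.5-week eyes. Its log2 fold changes were 0.35 ± 0.27 and 0.36 ± 0.27 (limma adjusted p = 0.304 and 0.308). Every operated juvenile library was above those 6 unoperated ones, and without replicate 6 the juvenile log2 change was 0.61 ± 0.21 (limma adjusted p = 0.0282). That fit is the only one of 29 alternatives in which STAT2 passed in juveniles: without 5-week operated replicate 3 the change was 0.18 ± 0.27 (limma adjusted p = 0.654), and without both libraries 0.42 ± 0.19 (limma adjusted p = 0.104).

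Of the 6 interferon regulatory factors listed through an unoperated group 2 rose at 6 months (all genes 16%) and 4 in juveniles (16.5%). IRF8, a factor of monocytes, dendritic and B cells, was 1.76 to 4.13 FPKM (median 2.63) in unoperated 5-week eyes. It was 5.74, 4.94 and 17.98 FPKM after surgery at 5 weeks and 5.02, 4.95 and 4.89 FPKM at 6.5 weeks, above every unoperated 5-week library. The juvenile log2 fold change was 1.18 ± 0.25 (limma adjusted p = 0.000518), and 0.90 without 5-week operated replicate 3 (limma adjusted p = 0.00182). At 6 months IRF8 rose 1.53-fold with overlap (limma adjusted p = 0.0441), a call lost in 11 of 27 alternatives (adjusted p up to 0.109).

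IRF5, another factor of macrophages and B cells, was listed at 0 to 2.33 FPKM in unoperated and at 3.60 to 7.48 FPKM in operated 6-month eyes. It was 1.92 to 5.94 FPKM in operated 5-week and 1.16 to 1.93 FPKM in operated 6.5-week eyes. Being listed only through operated groups, it too is described without a test. IRF2, a repressor and activator at interferon response elements, rose 1.19-fold at 6 months and 1.22-fold in juveniles, calls lost in 9 of 27 and 4 of 29 alternatives. IRF3, the factor that starts type I interferon transcription, rose 1.24-fold in juveniles (limma adjusted p = 0.0213, lost in 6 of 29 alternatives), and at 6 months its change was 0.05 ± 0.10.

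IRF1, an early target of interferon gamma, was called in juveniles just inside the threshold (log2 0.94 ± 0.37, limma adjusted p = 0.0498), and the call was lost in 19 of 29 alternatives (adjusted p up to 0.301). The operated 5-week values were 11.88, 17.35 and 77.75 FPKM and the operated 6.5-week values 16.12, 19.02 and 14.96 FPKM, against 7.98 to 9.85 FPKM in 6 of the 7 unoperated libraries and 30.67 FPKM in replicate 6. Without operated replicate 3 the call was lost (0.54, limma adjusted p = 0.203), and without both libraries that stood apart it passed (0.79 ± 0.25, limma adjusted p = 0.0204). IRF7, the amplifier of type I interferon, ranged from 5.70 to 27.37 FPKM in 6 unoperated 5-week libraries and stood at 134.61 FPKM in replicate 6. It was listed at 0 in 6-month unoperated replicate 4 and at 6.00 to 36.98 FPKM in the other 6. Its changes of 1.11 ± 0.85 and 0.81 ± 0.85 did not pass. IRF2BP1, a partner protein of IRF2, fell at 6 months from 25.3 ± 2 to 20.2 ± 1.56 FPKM (log2 -0.31 ± 0.08, limma adjusted p = 0.0017), and IRF2BP2 did not pass (-0.12 ± 0.07).

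The antiviral effector genes varied widely within groups and none of them passed. ISG15 stood at 9.27, 47.13, 79.31, 15.45, 6.68, 24.29 and 35.38 FPKM in the 7 unoperated 6-month libraries. In the 6 operated libraries it was 29.43, 101.08, 103.23, 81.62, 21.31 and 14.53 FPKM. The highest unoperated library lay above 3 of the 6 operated ones. The log2 fold change was 0.95 ± 0.74 at 6 months and 0.60 ± 0.74 in juveniles (limma adjusted p = 0.305 and 0.552). The coefficient of variation of ISG15-system genes was 40.7 to 82.7% in unoperated 6-month eyes, that of the IFIT genes 38.2 to 52.8%, and that of the receptors 3.6 to 27.4%.

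**Figure D3:**
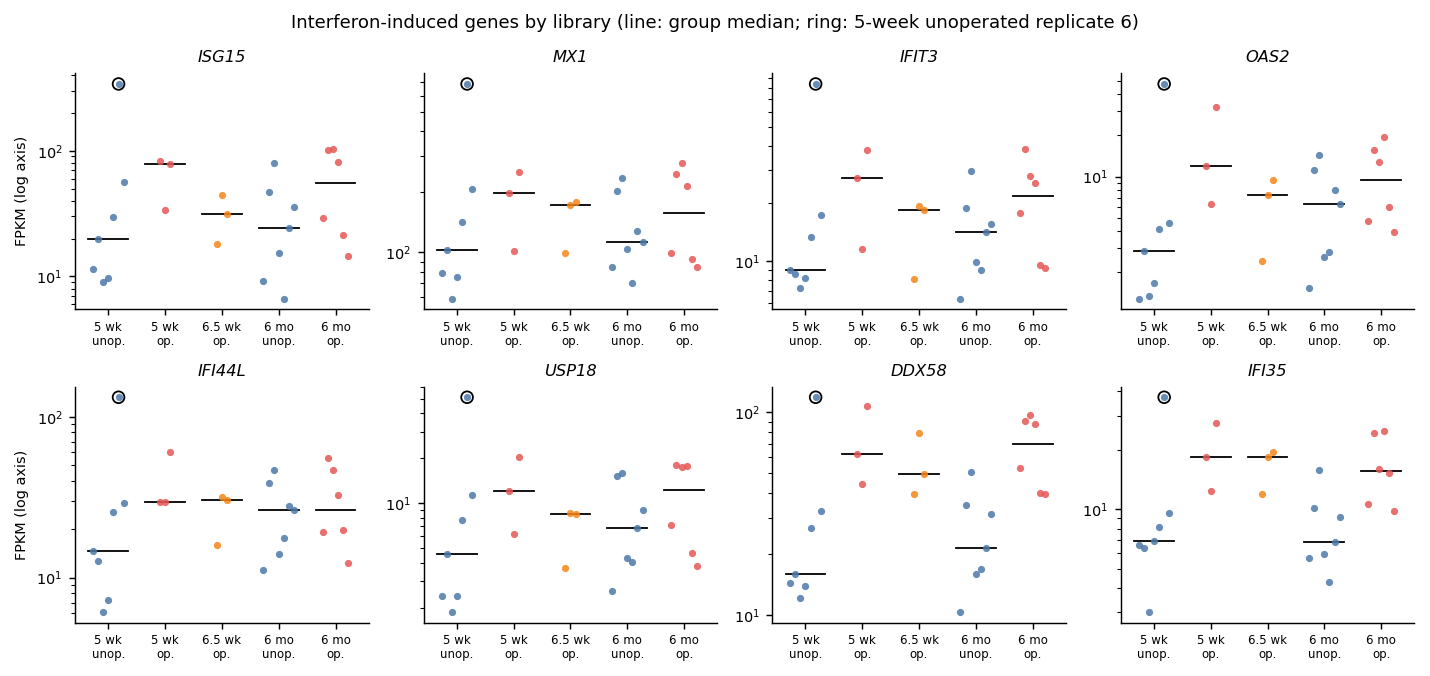
FPKM of 8 interferon-induced genes in each of the 26 libraries, by group, on log axes with a line at the group median. The ring marks 5-week unoperated replicate 6, the highest point in each of the 8 panels.

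The IFIT proteins bind foreign RNA, and none of the 3 genes passed. IFIT3 ranged from 6.37 to 29.52 FPKM (median 14.14) in unoperated and from 9.15 to 38.52 FPKM (median 21.78) in operated 6-month eyes (log2 0.49 ± 0.49). In unoperated 5-week eyes it was 84.21 FPKM in replicate 6 and at most 17.32 FPKM in the other 6. It was 27.17, 11.56 and 38.00 FPKM in operated 5-week and 8.09, 19.35 and 18.59 FPKM in operated 6.5-week eyes (juvenile log2 0.39 ± 0.49). IFIT2 and IFIT5 had juvenile changes of 0.36 ± 0.37 and 0.20 ± 0.47. In juveniles each of the 3 was negative in at least 1 alternative.

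MX1 was the most abundant of these genes per length in every group, at group means of 133 to 193 FPKM. MX1 and the OAS genes, 5 in all, had log2 fold changes from -0.37 to 0.69 at 6 months and from 0.24 to 1.11 in juveniles, and 0 of 5 passed by limma in either, with 0 at an unadjusted p under 0.05. OAS2, which makes the 2'-5'-linked oligoadenylates that activate RNase L, had the largest juvenile change (1.11 ± 0.66). It was 47.65 FPKM in 5-week unoperated replicate 6 and 1.28 to 4.57 FPKM in the other 6, against 12.05, 6.31 and 32.11 FPKM in operated 5-week and 2.42, 7.34 and 9.47 FPKM in operated 6.5-week eyes. Further genes described as relatives of the OAS, MX and IFIT families are listed under locus numbers. No sequences were compared, and whether the authors' counting split reads among such genes was not tested.

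Removing 5-week unoperated replicate 6 raised the juvenile count from 15 to 24 of the 46 genes, with 0 lower, where 16.9% of all genes were higher in that fit. That library was singled out for its high levels of these genes. Leaving it out therefore had to raise the juvenile change of every gene that was highest there, and the added calls are a description. The genes that then passed and had not before were STAT2, IFIH1, IFIT2, OAS2, OAS3, IFI44L, PARP9 and PARP12, besides IRF5. All counts of risen genes in this paragraph include STAT4, and IRF5 where it passed. IRF5 was listed only through operated groups, the young ones among them, so that it had to be high there. STAT4 was listed only through operated 6-month eyes, which are not compared in these juvenile fits. OAS2 moved to log2 1.70 ± 0.52 (limma adjusted p = 0.0129) and IFI44L to 1.14 ± 0.43 (adjusted p = 0.0398). By role, 1 of 3 IFIT, 2 of 5 OAS and MX genes, and 0 of 3 ISG15-system genes passed. Without 5-week operated replicate 3 alone 11 rose (15% of all genes), without both libraries 16 (15.5%), and without the 3 late-numbered 5-week samples 20 rose (15.5%). The late-numbered samples, whose label numbers are 53, 55 and 57, include both libraries that stood apart, and they ranked 1, 2 and 9 among the 26 libraries for the mean log2 level of the 13 antiviral genes. With the 5-week operated eyes alone 11 rose and 1 fell (11.7% of all genes higher and 13.1% lower), and with the 6.5-week operated eyes alone 10 rose and 0 fell (14.4% higher). IFNAR1, IFNGR1, IFNGR2, STAT3, STAT6, PARP3 and IRF8 rose in all 7 of these fits, the one on all libraries included.

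**Figure D4:**
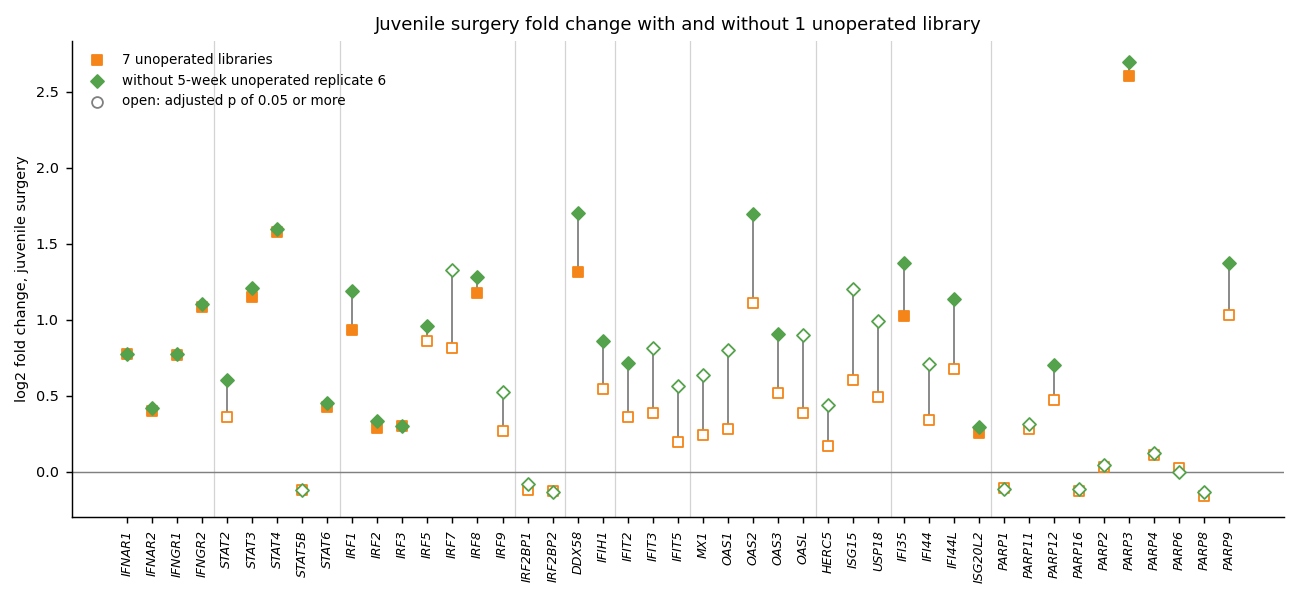
Juvenile log2 fold change of 45 of the 46 genes with all 7 unoperated 5-week libraries (squares) and without replicate 6 (diamonds), in order of role; filled symbols passed an adjusted p of 0.05. The receptors and PARP3 hardly move, while OAS2 goes from 1.11 to 1.70 and IFIT3 from 0.39 to 0.82.

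Across the 26 libraries most of the antiviral genes moved together after each group's mean was subtracted. As a description over libraries that share a normalization, Pearson's r with ISG15 on the log2 scale was 0.8 or more for 17 of the other 45 genes, and for 14 without 5-week unoperated replicate 6. Leaving that library out, r was 0.96 for USP18 (the protease that removes ISG15 from proteins), 0.95 for MX1, OASL and IFIT5, 0.93 for DDX58 and 0.85 for IFI35. Of the antiviral genes OAS1 (0.43) and HERC5 (0.65) had the lowest values. It was below 0.5 for 25 genes. It was -0.06 for IFNAR1, -0.02 for IFNAR2, 0.23 for IFNGR1 and -0.10 for IFNGR2, 0.25 for STAT3, 0.24 for PARP3 and -0.58 for STAT5B. The mean log2 level of the 13 antiviral genes ran from 2.67 to 6.41 in unoperated 5-week eyes (median 3.27) and from 3.86 to 5.26 in operated 5-week eyes. It was 3.22 to 4.18 in operated 6.5-week, 2.85 to 4.81 in unoperated 6-month and 3.22 to 4.95 in operated 6-month eyes. These ranges overlap, and at 6 months replicates 2, 3 and 4 of the operated and 2 and 3 of the unoperated eyes were the high ones.

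**Figure D5:**
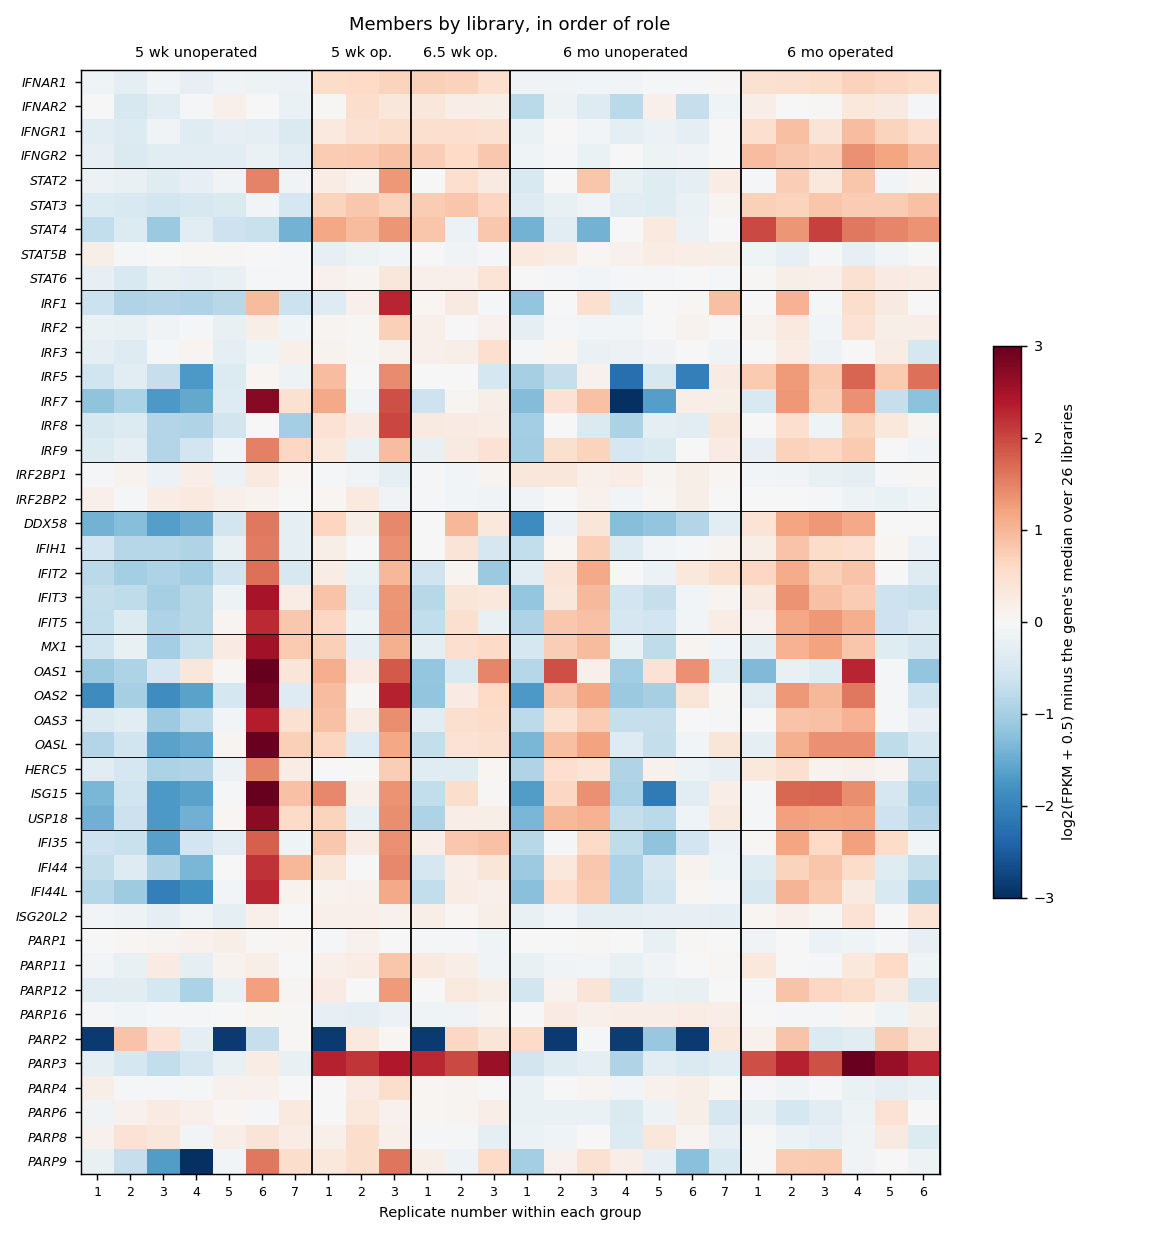
Level of 45 of the 46 genes (rows, by role) in the 26 libraries (columns, by group), as log2(FPKM + 0.5) minus each gene's median over all libraries; colours are capped at 3 in both directions. The receptor, STAT3 and PARP3 rows change at the group borders, whereas the IFIT, OAS, MX1 and ISG15 rows are highest in replicate 6 of the 5-week unoperated group and vary from library to library elsewhere.

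Of the 2 cytosolic RNA sensors, DDX58 (RIG-I, which detects viral RNA ends) rose and IFIH1 (MDA5, which detects long double-stranded RNA) did not pass. DDX58 was 62.25, 44.28 and 107.43 FPKM in operated 5-week and 39.40, 78.76 and 49.39 FPKM in operated 6.5-week eyes. Unoperated 5-week eyes were at 12.19 to 32.66 FPKM in 6 libraries, below every operated one, and at 118.52 FPKM in replicate 6. At 6 months it went from 10.37 to 50.59 FPKM (median 21.35) to 39.39 to 97.32 FPKM (median 69.99). The log2 fold change was 1.44 ± 0.44 at 6 months and 1.32 ± 0.44 in juveniles (limma adjusted p = 0.0109 and 0.0227). The juvenile call was lost in 7 of 29 alternatives, among them the fit without 5-week operated replicate 3 (1.15, adjusted p = 0.0655). IFIH1 had changes of 0.38 ± 0.33 and 0.55 ± 0.33.

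IFI35, a leucine-zipper protein induced by both interferon types, rose about equally at both ages. It was 4.26 to 15.84 FPKM (median 6.82) in unoperated and 9.87 to 25.18 FPKM (median 15.73) in operated 6-month eyes. In unoperated 5-week eyes it was 3.01 to 9.55 FPKM in 6 libraries and 37.32 FPKM in replicate 6, and after surgery 18.52, 12.37 and 27.73 FPKM at 5 weeks and 12, 18.54 and 19.62 FPKM at 6.5 weeks. The fold was 2.02 and 2.03 (log2 1.02 ± 0.39 in both; limma adjusted p = 0.0346 and 0.04). The call was lost in 8 of 27 alternatives at 6 months (adjusted p up to 0.087) and in 14 of 29 in juveniles (up to 0.317), and the juvenile call turned on single libraries. The juvenile change was 1.37 ± 0.30 without 5-week unoperated replicate 6 (limma adjusted p = 0.000885), 0.88 ± 0.41 without 5-week operated replicate 3 (0.103) and 1.23 ± 0.31 without both (0.0038). ISG20L2, a nuclear exonuclease that matures ribosomal RNA, rose 1.33-fold at 6 months, from 17 ± 0.871 to 22.9 ± 3.23 FPKM, and 1.19-fold in juveniles.

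PARP enzymes attach ADP-ribose to proteins, and several members are interferon-induced antiviral factors. PARP3, a nuclear enzyme of DNA break repair, had the largest change of all 46 genes. It was 4.33 to 6.90 FPKM (median 6.51) in unoperated and 33.44 to 69.82 FPKM (median 43.72) in operated 6-month eyes. Unoperated 5-week eyes stood at 4.89 to 9.99 FPKM (median 6.89), and after surgery the values were 44.05, 39.21 and 46.90 FPKM at 5 weeks and 42.93, 35.33 and 53.45 FPKM at 6.5 weeks. Every operated library was above every unoperated one. The log2 fold change was 2.79 ± 0.16 at 6 months (6.89-fold) and 2.60 ± 0.16 in juveniles (6.08-fold; limma adjusted p = 1.24e-12 and 4.81e-12), and it ranged from 2.48 to 3.02 over the alternatives of both comparisons.

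Of the other 9 PARP genes 1 was called, as lower at 6 months (all genes 30.1% lower). PARP16, an enzyme of the endoplasmic reticulum, fell by 0.17 ± 0.05 on the log2 scale at 6 months with overlap, from 16.6 ± 0.885 to 14.6 ± 1.13 FPKM (limma adjusted p = 0.0109), a call lost in 4 of 27 alternatives. PARP9, PARP11 and PARP12 did not pass in either comparison: their changes were 0.54 ± 0.49, 0.28 ± 0.12 and 0.43 ± 0.27 at 6 months, and 1.03 ± 0.49, 0.28 ± 0.12 and 0.47 ± 0.27 in juveniles. PARP1, the main enzyme of the DNA damage response, had -0.10 ± 0.05 in both. PARP2 was listed at 0 in 1 or more libraries of 4 of the 5 groups and was 2.27 to 6.16 FPKM in operated 6-month eyes, and it was listed through that group alone.

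In unoperated eyes 4 were higher and 1 lower at 6 months than at 5 weeks, where 11.4% of all genes were higher and 9.46% lower. IFNGR2 rose 1.17-fold, STAT3 1.15-fold, STAT5B by 0.16 ± 0.05 on the log2 scale and PARP16 1.15-fold, and PARP6 fell by 0.33 ± 0.11 (limma adjusted p from 0.00804 to 0.0493). These calls were lost in 10 (IFNGR2), 20 (STAT3), 11 (STAT5B), 3 (PARP16) and 13 (PARP6) of 28 alternatives. Leaving out single libraries gave 1 to 6 higher and 0 to 3 lower. Without both libraries that stood apart, chosen after seeing the data, 9 were higher and 1 lower (12.3% and 9.28% of all genes). IFIT2 (log2 1.07 ± 0.24) and IRF1 (0.79 ± 0.23) were then among the higher ones. Both were highest of their group in 5-week unoperated replicate 6. Leaving that library out therefore had to raise their change with age, and these added calls are a description. In operated eyes, apart from STAT4, 0 were higher at 6 months and PARP4 was lower (-0.30 ± 0.08, limma adjusted p = 0.0124), against backgrounds of 5.88% and 9.78%. The PARP4 call was lost in 3 of 28 alternatives (adjusted p up to 0.242). IFI35 passed with age neither in unoperated (-0.12 ± 0.37) nor in operated eyes (-0.12 ± 0.40). These comparisons share libraries with the surgery comparisons. For the difference of the surgery effects between ages 0 of 46 passed by limma, where 0.734% of all genes passed as higher and 0.355% as lower. At an unadjusted p under 0.05 there were 4 (IFNAR1, PARP4 and STAT5B, and IRF5, listed only through operated groups). Between operated 6.5-week and 5-week eyes 0 of 46 passed, where 0.00772% of all genes passed in each direction. There 2 were at an unadjusted p under 0.05 (PARP8 and PARP16). The shares of all genes at an unadjusted p were not counted.

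Interferon gamma itself (IFNG) was the only interferon gene listed in the table. Its group means were 5.60 to 7.33 FPKM, and its changes with surgery were -0.05 at 6 months and 0.12 in juveniles, neither of which passed by limma and both of which changed sign in an alternative. Among 14 listed kinases and regulators of the pathway, 7 rose and 2 fell at 6 months and 9 rose and 2 fell in juveniles (all genes 16% and 30.1% at 6 months, 16.5% and 20.8% in juveniles). Given the same sum per library, 5 rose and 5 fell at 6 months. SOCS3, the feedback inhibitor induced by STAT3, rose from 2.76 ± 0.432 to 39.1 ± 6.91 FPKM at 6 months (12-fold) and from 2.06 ± 0.605 to 57.6 ± 10.9 FPKM in juveniles (22.8-fold). The feedback inhibitor SOCS1 rose from 2.80 ± 0.967 to 6.08 ± 1.01 FPKM at 6 months (2.04-fold) and from 2.68 ± 1.02 to 8.26 ± 1.33 FPKM in juveniles (2.86-fold). CISH, a STAT5-induced inhibitor, rose 3.89-fold and 3.56-fold, and JAK1, a kinase of the type I and type II receptors, 1.2-fold and 1.25-fold. PIAS1 and PIAS2, SUMO ligases that restrain STATs, fell in both, PIAS1 by 0.29 ± 0.08 and 0.36 ± 0.08 on the log2 scale.

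Of 28 listed interferon-induced genes outside the symbol rule, 5 rose at 6 months (all genes 16%) and 7 in juveniles (16.5%), and 0 fell. Without 5-week unoperated replicate 6 13 rose in juveniles (16.9%). Of the 25 listed through an unoperated group 5 and 6 rose. UBE2L6, the enzyme that carries ISG15 to its targets, went from 17.5 ± 6.98 to 53.8 ± 9.43 FPKM at 6 months (3.16-fold, limma adjusted p = 7.29e-05) and from 18.3 ± 15 to 53.5 ± 12.8 FPKM in juveniles (3.33-fold). The nuclear body protein PML rose 1.70-fold and 1.59-fold and SHISA5 1.68-fold and 1.52-fold. Of 10 genes of nucleic acid sensing listed through an unoperated group 3 rose and 1 fell at 6 months and 4 rose in juveniles, against the same shares of all genes (16% higher and 30.1% lower, 16.5% higher). Among them MYD88, the adaptor of Toll-like receptors, rose 1.39-fold and 1.56-fold. TMEM173 (STING), listed only through operated groups, was at 0.65 to 4.36 FPKM in unoperated 5-week, 1.78 to 11.69 FPKM in operated 5-week and 2.43 to 3.12 FPKM in operated 6.5-week eyes.

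Of 12 antigen-processing genes 2 rose at 6 months (all genes 16%) and 9 in juveniles (16.5%), and 0 fell. Of the 11 listed through an unoperated group 2 and 8 rose. Without 5-week operated replicate 3, the library with the most T cell marker RNA, 4 of 12 rose in juveniles (15%), and without 5-week unoperated replicate 6 it was 11 (16.9%). CD74, the invariant chain of class II molecules, was 84.94 to 233.03 FPKM (median 112.08) in unoperated 5-week eyes. It was 412.76 to 1545.75 FPKM in operated 5-week and 438.55 to 511.81 FPKM in operated 6.5-week eyes (log2 2.18 ± 0.32, limma adjusted p = 1.12e-05), and it rose 2.16-fold at 6 months. PSMB9, an immunoproteasome subunit, rose 3.85-fold in juveniles (limma adjusted p = 0.0155), a call lost in 4 of 29 alternatives, and did not pass at 6 months. The macrophage marker sum, given above, was higher in every operated than in every unoperated library. The T and NK cell sum overlapped between operated (7.1 to 20.8 FPKM) and unoperated (1.43 to 37.9 FPKM) 6-month eyes. In juveniles it was 3.79 to 7.29 FPKM in 5 operated libraries and 111 FPKM in 5-week operated replicate 3, against 0.25 to 12 FPKM in unoperated eyes. The part of these cells in the counts was not tested.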

How the data were processed

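The authors' deposited table gives FPKM per RefSeq transcript and library, per the file headers. The submitters' processing notes name RSEM 1.2.12, Bowtie2 2.2.5, HISAT2 2.0.4 and HISAT; no genome build is named in these sources. Every listed transcript reached at least 1.01 FPKM in all libraries of some group, so genes low in every group are not listed. No counts were used and the depth is unknown.

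FPKM were summed per symbol and analysed as log2(FPKM + 0.5), which understates changes of low genes. A filter of 1 FPKM in 3 libraries removed 0 genes. Group means of 26 libraries in 5 groups were estimated together in limma 3.58.1 (R 4.3.3), with robust variance moderation that follows the mean level. The 6 comparisons were adjusted by the Benjamini-Hochberg method over 12948 genes, and an adjusted p under 0.05 is a call; such genes are said to have risen or fallen. Tables were made in Python 3.11.15 with pandas 2.3.3. 1 of the 46 genes counts in every total and is not reported here by itself. The procedure was tested on simulated data.

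Groups came from the age and treatment labels; replicate numbers are in accession order and only name a library. Each library carries a number of its own in its title, but nothing states separate animals, so p-values measure the spread between these libraries. The genes, role lists, further lists and marker lists were chosen with earlier results of these data known. Any of the 46 genes may be named, the 8 largest called changes per direction of a surgery comparison and every call with age with full statistics, IFI35 in every comparison, and up to 6 called genes of a further list. Genes listed only through operated groups are given without tests. IFNG, JAK1 and PIAS1 were named for their roles after their values were seen. The 13 antiviral genes were put together with values known. Alternatives were other pseudocounts (0.1 and 1), filters, scalings, transcripts, moderation and sets of libraries.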

Additional observations from a re-analysis of the deposited data

Results flagged for a closer look

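In groups of 6 or 7 libraries, the highest or lowest library was compared with its nearest neighbour by Dixon's ratio of FPKM in 135 checks. For independent, normally distributed values chance alone would mark about 1 in 20. Many of these genes moved together, so marks in the same library are not separate events, and that rate is no measure for their number. Dixon's ratio marked 28, and 22 of these are the highest values of 5-week unoperated replicate 6. In that library ISG15 stood at 339.7 FPKM, 21.7 times the median of the other 6, and OAS2 at 47.65 FPKM, 21.2 times. MX1 was at 685.07, IRF7 at 134.61 and USP18 at 51.02 FPKM. The IFIT genes were at 56.05 (IFIT2), 84.21 (IFIT3) and 142.88 FPKM (IFIT5). OAS1 was at 43.5, OAS3 at 40.7 and OASL at 85.56 FPKM, and HERC5 at 18.16 FPKM. IFI35 was at 37.32, IFI44 at 80.09 and IFI44L at 132.23 FPKM. The sensors DDX58 and IFIH1 were at 118.52 and 28.61 FPKM. STAT2 was at 64.59 and STAT3 at 67.26 FPKM, IRF1 at 30.67 and IRF9 at 96.41 FPKM, and PARP12 at 28.51 FPKM. The library was the highest of its group for 32 of the 46 genes, and for 23 it was 3-fold or more above the median of the others.

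The other 6 marked values are in 6 libraries. STAT2 was high at 40.7 FPKM in 6-month unoperated replicate 3. ISG20L2 was high at 18.86 FPKM in 6-month unoperated replicate 2, OAS1 at 20.76 FPKM in 6-month operated replicate 4 and STAT5B at 18.61 FPKM in 5-week unoperated replicate 1. PARP1 was low at 20.53 FPKM in 6-month unoperated replicate 5 and PARP16 at 14.71 FPKM in 6-month unoperated replicate 1.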

How the results depend on the processing

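Over 42 alternatives, 2939 of 3218 values of named genes kept their direction and their side of the threshold. No paired analysis was possible because no number in the labels is shared between groups. FPKM carry no depth, so counting error cannot be given. The cause of each shift below was not tested. With surgery at 6 months 11 to 14 genes rose and 3 to 4 fell on leaving out single libraries, and 6 fell with equal-sum scaling, which moved the median of all genes from -0.11 to -0.25. In juveniles 11 to 24 rose and 0 to 1 fell on leaving out single libraries. Equal-sum scaling gave 9 higher and 5 lower, leaving out libraries with over 1000 FPKM of CRYAA gave 8 higher, and 5-week operated eyes alone gave 1 lower. The counts over all 12948 genes moved as well. They were 2141 higher and 2694 lower in the main fit and 1545 and 4670 with equal-sum scaling. Without CRYAA-rich libraries they were 1283 and 1361, and with 5-week operated eyes alone 1517 and 1699.

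With age in unoperated eyes, 1 to 6 higher and 0 to 3 lower came from leaving out single libraries. Median-ratio scaling gave 1 higher and 2 lower, upper-quartile scaling 1 and 3, equal-sum scaling 0 and 3, and the most abundant transcript alone 2 higher. The compared groups alone gave 2 lower. Without the late-numbered samples 7 were higher and 0 lower, without CRYAA-rich libraries or with a lens and photoreceptor covariate 0 and 0, and without both libraries that stood apart (chosen after seeing the data) 9 were higher. Over all 12948 genes, 1471 were higher and 1225 lower in the main fit. These counts were 279 and 320 without CRYAA-rich libraries, 699 and 717 with the covariate, and 875 and 1652 with equal-sum scaling. In operated eyes, 0 to 3 higher and 1 to 2 lower came from leaving out single libraries. Median-ratio scaling gave 3 higher, equal-sum scaling 0 higher and 4 lower, and a pseudocount of 0.1, a mean of 3 FPKM, the most abundant transcript, leaving out CRYAA-rich libraries, the covariate or leaving out both libraries gave 0 higher. The compared groups alone and 6.5-week operated eyes alone gave 0 lower, and leaving out late-numbered samples 0 and 0. In operated eyes the counts over all genes were 761 higher and 1266 lower in the main fit. They were 329 and 1996 with equal-sum scaling, 459 and 846 without CRYAA-rich libraries, and 209 and 613 with the compared groups alone. The age difference in the surgery effect and 6.5 against 5 weeks stayed at 0 in every alternative.

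Signs turned on the log2 scale for the following, none of them called after turning. IFI35 with age in operated eyes (-0.12) became 0.017 without late-numbered samples or both libraries and 0.0099 without CRYAA-rich libraries, with single libraries left out -0.27 to 0.017. IFI35 with age in unoperated eyes (-0.12) became 0.34 and 0.23 without late-numbered samples and both libraries (single libraries -0.34 to 0.23). Its interaction (-0.006) became 0.0007 with pseudocount 1, 0.060 and 0.026 with median-ratio and upper-quartile scaling, 0.45 without CRYAA-rich libraries, 0.0011 with the covariate and 0.082 with 6.5-week eyes alone (single libraries -0.36 to 0.22). At 6.5 against 5 weeks it became 0.11 without late-numbered samples or both libraries (single libraries -0.46 to 0.11). In juveniles IFIT2 became -0.047 and IFIT3 -0.038 without CRYAA-rich libraries, and IFIT2 -0.078 and IFIT5 -0.18 with 6.5-week eyes alone. Equal-sum scaling at 6 months gave -0.092 for IRF3 and -0.016 for TRIM5, and median-ratio scaling 0.038 for IFNG (single libraries -0.11 to 0.0506 at 6 months and -0.0087 to 0.2031 in juveniles). The most abundant transcript gave -0.11 for PARP16 with age in unoperated eyes and 0.57 in juvenile surgery. Single libraries gave -0.0001 to 0.15 for IRF3 at 6 months.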

Other observations

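The table lists 19 genes under locus numbers that it describes as interferon-induced, among them guanylate-binding proteins, interferon-induced transmembrane proteins, Mx2 and IFIT1 copies. With surgery 0 of 19 passed by limma at 6 months (median log2 0.54), where 16% of all genes were higher by adjusted p. At an unadjusted p under 0.05 there was 1, and the share of all genes at that level was not counted. In juveniles 2 rose (median 0.95, all genes 16.5% higher). Without 5-week unoperated replicate 6 the juvenile count was 10 (all genes 16.9%), and without that library and 5-week operated replicate 3 it was 5 (15.5%). Of the 16 listed through an unoperated group 0 and 1 rose. A gene described as guanylate-binding protein 1 (LOC100358539) was 0.89 to 40.21 FPKM (median 1.46) in unoperated 5-week eyes, 11.59, 11.61 and 123.36 FPKM at its lowest, median and highest in operated 5-week eyes, and 6.17 to 16.15 FPKM in operated 6.5-week eyes. It was listed only through operated groups, so that it had to be high there. A gene described as guanylate-binding protein 4 (LOC100346726) rose 3.07-fold in juveniles (limma adjusted p = 0.00561). Reads may be split among genes that are alike, but no sequences of these genes were compared and this was not tested.

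LOC100338180 is named in RefSeq's list for the mOryCun1.1 assembly as IRF2BPL, a relative of the IRF2-binding proteins. It rose 1.32-fold with surgery at 6 months and 1.38-fold in juveniles (limma adjusted p = 9.99e-05 and 2.1e-05), and its group means ran from 21.5 to 35.4 FPKM.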
